A study of Mus musculus with 860 samples.

Results

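Cluster 0 was the most populated of the 11 Louvain clusters into which the authors placed single cells of the mouse aorta-gonad-mesonephros (AGM) region. Here it carries the label Aplnr-high, venous-like endothelium, which is not a name given by the authors, whose annotation numbers the clusters. Its members were the cells with cluster number 0 in the deposited annotation: 72 cells of the batch named GL53, 11 of GL58, 6 of GL69 and 84 of GL78, together 22.3% of the 775 cells that passed the authors' quality filter, out of 860 sequenced. All embryos carried the Gfi1:tomato reporter on a CD1 background, in which red fluorescence reads the activity of Gfi1, and no treatment was given other than staining for flow cytometry. AGM cells were taken from pooled embryos at E10.5 or E11.5 (embryonic days) and sorted singly as GFI1+ HE (CD31+cKIT-GFI1+, haemogenic endothelium), GFI1+ IAHC (CD31+cKIT+GFI1+, intra-aortic haematopoietic cluster) or GFI1- IAHC (CD31+cKIT+GFI1-), and each gave 1 full-length Smart-Seq2 library. The labels tie no cell to an embryo, so each group counted as 1 sample. The values below carry no p-value, and the error given is the SD over these named batches or an exact Poisson or binomial interval that covers counting error only.

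The dorsal aorta of the AGM is lined by endothelium from which the first haematopoietic stem cells bud, through haemogenic endothelium and intra-aortic clusters. Arterial endothelium depends on VEGF and Notch signalling, in which the ligands DLL4 and JAG1 engage NOTCH1 and NOTCH4 and switch on Hes and Hey genes, and it uses the connexins Gja4 and Gja5 and the ligand Efnb2. Venous endothelium depends on the nuclear receptor Nr2f2 (COUP-TFII), which holds Notch signalling down, and uses Ephb4, Nrp2 and the apelin receptor Aplnr. Lymphatic endothelium arises from venous endothelium when Prox1 is switched on beside Nr2f2.

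By gate, cluster 0 comprised 31 GFI1+ HE cells (17.9% of it, 23 at E11.5 and 8 at E10.5), 61.3% GFI1+ IAHC cells (87 at E11.5 and 19 at E10.5) and 36 GFI1- IAHC cells (20.8%, 35 at E11.5 and 1 at E10.5). A cell of cluster 0 had between 212116 and 2296823 counts (median 719353), a median of 7331 genes detected, 5493 when thinned to 50000 counts, and a median of 1.74% mitochondrial counts. The authors' cell cycle calls placed 89 cells in G1 (51.4%), 5 in S (2.89%) and 79 in G2M (45.7%). All 11 cells of GL58 were called G2M, against 42.9% in G1 in GL78 and 73.6% in G1 in GL53, whereas the cells of clusters 1 to 5 in GL58 included G1 calls (7 of 25 in cluster 1), so that in this batch the phase calls differed between the sides. No cell name occurred more than once across the libraries.

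In the proximal promoters of the genes on which the description turns, 3 short motifs were marked, each read on either strand, and none contains another. The core bound by the Notch effector RBPJ was searched as TGGGAA. The half-site of nuclear receptors such as NR2F2 was searched as AGGTCA. The site of GATA factors was searched as AGATAA. The 250 bases before the transcription start are given 5′ to 3′ from RefSeq, build GRCm38.p6, with motif matches in capitals. Cldn11 was the gene with the largest fold in cluster 0, Emcn and Igf1 are markers given with its label, and Dll1 and Dll4 are Notch ligands that lay on opposite sides of the comparison.
Cldn11, chr3:31149670-31149919, plus strand: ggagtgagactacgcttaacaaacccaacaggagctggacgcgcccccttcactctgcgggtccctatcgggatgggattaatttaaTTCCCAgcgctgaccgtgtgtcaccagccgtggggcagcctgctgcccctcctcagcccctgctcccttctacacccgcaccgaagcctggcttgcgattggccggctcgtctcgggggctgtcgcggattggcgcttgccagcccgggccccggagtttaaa
Emcn, chr3:137340828-137341077, plus strand: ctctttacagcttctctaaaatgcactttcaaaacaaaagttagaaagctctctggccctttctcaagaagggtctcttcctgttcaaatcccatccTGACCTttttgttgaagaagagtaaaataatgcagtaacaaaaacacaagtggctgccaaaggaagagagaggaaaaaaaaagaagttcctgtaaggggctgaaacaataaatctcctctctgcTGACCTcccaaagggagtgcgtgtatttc
Igf1, chr10:87860861-87861110, plus strand: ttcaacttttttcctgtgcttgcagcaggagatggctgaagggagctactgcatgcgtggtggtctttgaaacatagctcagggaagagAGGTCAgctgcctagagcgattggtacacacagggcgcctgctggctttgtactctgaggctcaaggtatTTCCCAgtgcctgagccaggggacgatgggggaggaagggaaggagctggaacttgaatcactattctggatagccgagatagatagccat
Dll1, chr17:15375824-15376073, minus strand: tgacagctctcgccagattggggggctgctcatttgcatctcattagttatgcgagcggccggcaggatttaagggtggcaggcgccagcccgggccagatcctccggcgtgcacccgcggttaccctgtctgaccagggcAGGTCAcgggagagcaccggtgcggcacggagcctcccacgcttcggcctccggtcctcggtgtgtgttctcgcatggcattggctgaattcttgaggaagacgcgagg
Dll4, chr2:119325534-119325783, plus strand: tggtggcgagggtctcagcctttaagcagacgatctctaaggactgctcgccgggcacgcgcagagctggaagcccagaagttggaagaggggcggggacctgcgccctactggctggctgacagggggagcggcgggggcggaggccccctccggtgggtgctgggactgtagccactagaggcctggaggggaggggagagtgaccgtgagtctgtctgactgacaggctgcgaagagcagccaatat
Cldn11 held 1 RBPJ core, Emcn 2 nuclear receptor half-sites, Igf1 1 RBPJ core and 1 half-site, the first of 2 Dll1 starts 1 half-site, and Dll4 none of the 3 motifs. Among the genes at 2-fold or more higher in cluster 0 than in clusters 1 to 5 in every batch (defined below), 47 of 63 had promoters in the table, 64 promoters in all, of which 28.12% held the RBPJ core, 10.94% the half-site and 7.812% the GATA site. For the genes lower in cluster 0 the shares were 12.73%, 0 of 55 promoters and 5.455% (38 of 42 genes), and over all 32841 promoters of 27018 genes 21.59%, 14.03% and 9.991%. A match describes these letters only and is no evidence of binding. Aplnr and Hey1 were not in the table.

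Cluster 0 was first set against the pooled cells of clusters 1 to 5, 488 in all, within each batch with 10 cells or more on both sides. Counts were summed per side and batch, scaled to a total of 1000000 (CPM), and the log2 ratio, with 1 CPM added to both sides, was averaged over GL53, GL58 and GL78, in which cluster 0 had 72, 11 and 84 cells and the smaller side in any batch was that of cluster 0. A gene met the 2-fold rule when it reached 10 CPM and reads in 25% of cells on the higher side and its ratio was 2-fold or larger, with 1 sign, in each batch. The authors had drawn the clusters from the expression of these same genes, so the differences describe the cluster and are not evidence for it. By this rule 63 of 9781 genes were higher in cluster 0 (0.644%) and 42 were lower (0.429%).

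The 5 markers given with the label were all higher in cluster 0 in every batch, but by unequal amounts, and in none of the 5 was the fold among the 10 largest. Aplnr, the receptor for the peptides apelin and ELABELA, stood at 1540, 1311 and 1187 CPM in GL53, GL58 and GL78, against 885, 817 and 501 in clusters 1 to 5, a log2 ratio of 0.91 ± 0.30 (SD, n = 3 batches). It did not reach 2-fold in every batch. Emcn, a sialomucin of capillary and venous endothelium, had 2211, 2204 and 1430 against 1361, 1115 and 755 CPM (0.87 ± 0.15). Nrp2, a co-receptor for VEGF-C and semaphorins, had 637, 480 and 360 against 200.6, 151.2 and 123.9 CPM (1.62 ± 0.07), and Igf1, the insulin-like growth factor, 632, 264.2 and 270.5 against 161.1, 101.1 and 64.9 CPM (1.80 ± 0.36). These 2 met the 2-fold rule, whereas Plvap, the diaphragm protein of fenestrated endothelium, differed little (0.30 ± 0.05). Set against single clusters, the Aplnr level did not mark cluster 0 off from clusters 3 and 5: it was 1540 in cluster 0, 1538 in cluster 3 and 1338 in cluster 5 in GL53, and 1187, 1034 and 990 in GL78.

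**Figure D1:**
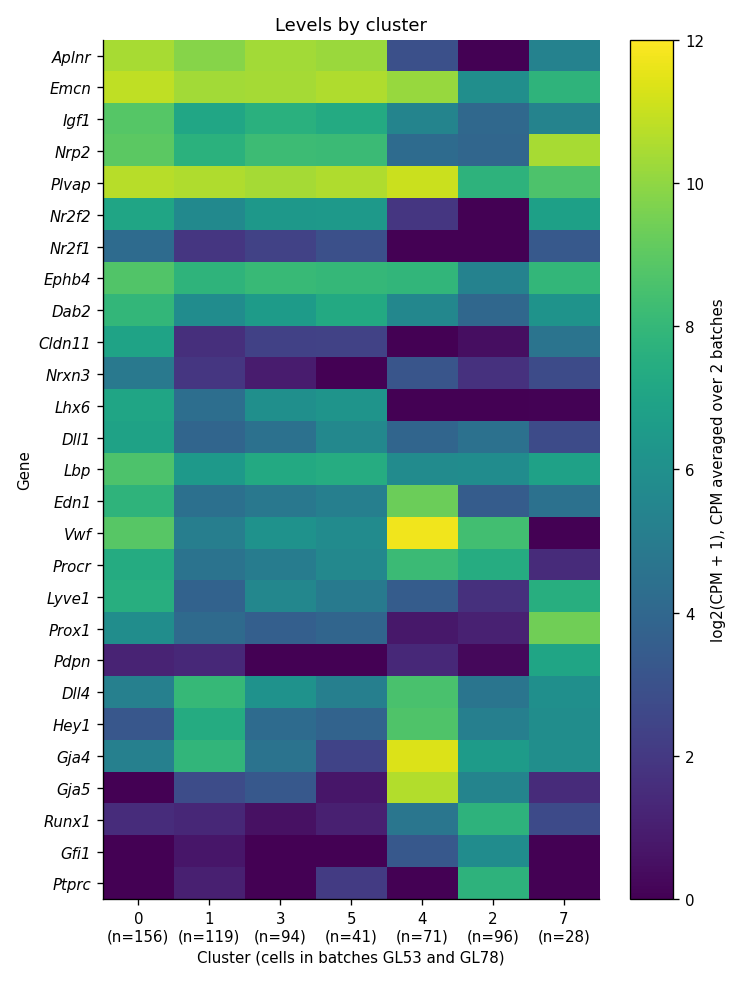
Heat map of the level, log2(CPM + 1) as the mean of GL53 and GL78, of 27 genes (rows) in clusters 0, 1, 3, 5, 4, 2 and 7 (columns), to be read along a row. Aplnr is high in clusters 0, 1, 3 and 5, low in cluster 4 (6.68 CPM) and near 0 in cluster 2 (0.0284 CPM), while Cldn11 and Dll1 peak in cluster 0.

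Some venous genes were higher and some arterial genes lower in cluster 0. Of 11 venous genes measured, 4 met the 2-fold rule as higher and none as lower, with a median log2 ratio of 0.91 against -0.02 over all genes. The list includes the label markers Aplnr, Emcn, Nrp2 and Plvap, so it gives no independent support for the label. Nr2f2, the transcription factor of venous identity, stood at 169.05, 151.1 and 97.8 CPM against 59.98, 31.4 and 28.5 (1.82 ± 0.38), and Dab2, an endocytic adaptor, at 248.8 against 58.6 CPM on average (2.05 ± 0.43). Nr2f1, the paralogue of Nr2f2, showed the same direction at a lower level, 15.7 against 2.46 CPM (2.26 ± 0.18). Ephb4, the venous receptor for ephrin-B2, averaged 396 against 205.8 CPM (0.94 ± 0.27) without reaching 2-fold in every batch.

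Of 17 arterial genes 5 were lower and none higher, with a median of -2.43. Gja4, the gap junction protein connexin 37, had 42.04, 16.8 and 29.6 CPM in cluster 0 against 569, 288.6 and 478 (-3.91 ± 0.16), and the groups were far apart in each batch. Clusters 3 and 5 were as low as cluster 0, at 21.4 and 23.7 CPM and at 8.67 and 0 CPM in GL53 and GL78, whereas cluster 1 had 248.02 and 230.1 and cluster 4 had 3007 and 2237 CPM. Gja5 (connexin 40) had reads in 3 cells of cluster 0 (1.73%) and averaged 0.801 against 243.7 CPM. It had reads in 6.90%, 3.96% and 1.75% of cells of clusters 1, 3 and 5, against 25.7% in cluster 2 and 97.4% in cluster 4. Unc5b, a netrin receptor of arterial and tip cells, averaged 19.9 against 111.99 CPM (-2.43 ± 0.19), and Efnb2, the arterial ephrin, 50.2 against 107.3 CPM (-1.04 ± 0.34). Unc5b was not lower against clusters 2 and 5 singly. The general endothelial list was level between the sides: none of its 22 genes met the rule and its median was 0.14, with Cdh5 (VE-cadherin) at 791 against 767 CPM and Pecam1 (CD31) at 929 against 1043 CPM.

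**Figure D2:**
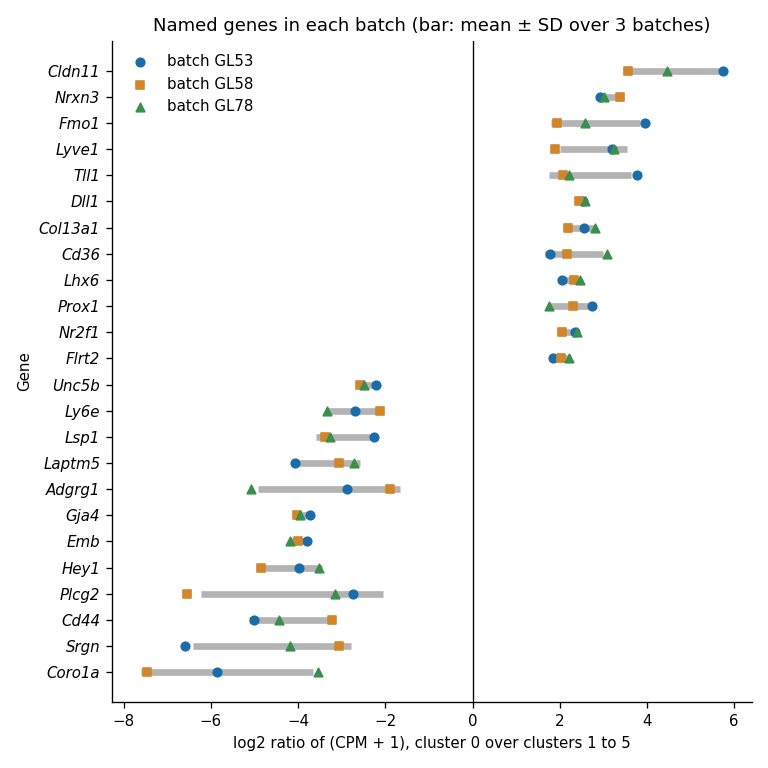
The log2 ratio of CPM + 1 in cluster 0 over clusters 1 to 5 (horizontal axis) for the 12 named genes higher and the 12 lower (rows), with 1 point for each of GL53, GL58 and GL78 and a grey bar for the mean ± SD. Every point lies beyond 2-fold on its gene's side, and the batches of Dll1 and Gja4 nearly coincide while those of Coro1a and Plcg2 are far apart.

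The 12 genes named as higher, ranked by the smallest ratio in any batch, were Cldn11, Nrxn3, Dll1, Col13a1, Tll1, Lhx6, Nr2f1, Fmo1, Lyve1, Flrt2, Cd36 and Prox1. Cldn11, a claudin best known from myelin and Sertoli cell junctions, averaged 86.2 against 1.38 CPM (4.59 ± 1.09), but with 193.9, 11.2 and 53.5 CPM in GL53, GL58 and GL78 its level in cluster 0 was uneven. Nrxn3, a neurexin of synaptic adhesion, averaged 21.6 against 1.78 CPM (3.11 ± 0.25). Lhx6, a LIM homeobox factor, averaged 121.2 against 24.6 CPM (2.29 ± 0.21), and Flrt2, a membrane ligand of Unc5 receptors, 382.02 against 96.2 CPM (2.03 ± 0.18). The counting interval of a named gene reached at most 22.5% of its level on the higher side. Tll1, a metalloprotease that cleaves BMP antagonists, averaged 71.1 against 9.07 CPM (2.69 ± 0.95).

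All 63 higher genes had the same sign against each of clusters 1, 2, 3 and 5, and 62 of 63 against cluster 4, where St6gal1 was the exception. Of the 63, 44, 58, 31, 49 and 23 also met the 2-fold rule against clusters 1, 2, 3, 4 and 5 taken singly. The 12 that met it against all 5 were Ccdc3, Cldn11, Col13a1, Col26a1, Dll1, Fmo1, Igf1, Lbp, Lyve1, Nrxn3, Ptprd and Tll1. The 42 lower genes did not have that breadth: 11, 27, 0, 23 and 1 of them met the rule against clusters 1 to 5, and none did against every cluster.

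Lymphatic genes were partly present. Of 10 measured, 3 met the rule as higher (Lyve1, Prox1 and Nrp2), with a median of 1.26. The lymphatic list shares Nrp2, Flt4 and Stab1 with the venous list. Lyve1, the hyaluronan receptor of lymphatic and yolk sac endothelium, stood at 251.2, 20.4 and 115.4 CPM against 26.4, 4.77 and 11.3 (2.78 ± 0.77), and Prox1, the factor that sets lymphatic fate, at 88.2, 28.6 and 28.6 against 12.3, 4.95 and 7.83 CPM (2.27 ± 0.50). Both were high in GL53 relative to the other batches. Flt4 (VEGFR-3) differed little, at 290 against 263.6 CPM (0.13 ± 0.41).

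Of the Notch ligands, Dll1 was higher and Dll4 lower in cluster 0 than in the pooled clusters, and both met the 2-fold rule. Dll1 stood at 157.9, 97.97 and 79.6 CPM against 26.3, 17.1 and 12.5 (2.52 ± 0.06), with nearly the same ratio in each batch. Dll4 had 22.8, 32.96 and 50.9 against 176.4, 202.9 and 150 CPM (-2.34 ± 0.71), but it was not lower against cluster 2 alone. Jag1 averaged 31.1 against 71.2 CPM (-0.92 ± 0.99) and Jag2 11.6 against 29.1 CPM (-1.27 ± 0.34). Among the receptors, Notch1 averaged 132.9 against 185.3 CPM (-0.49 ± 0.39), Notch2 10.8 against 17.5 (-0.73 ± 0.84), and Notch4, the endothelial receptor, 51.6 against 120 CPM (-1.19 ± 0.27).

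Of the Notch targets, Hey1 had 7.82, 4.38 and 9.49 CPM in cluster 0 against 138.9, 154.5 and 120 (-4.12 ± 0.67), and Hey2 had 0 reads in cluster 0 in all 3 batches against 16.6 CPM, which puts it at least 18.2-fold lower when 3 counts are set as the floor of each side and batch. Cluster 5 also had 0 Hey2 reads in GL53 and GL78. Hey1 had reads in 17.3% of cells of cluster 0 and in 27.7% and 24.6% of clusters 3 and 5. In clusters 1, 2 and 4 it had reads in 64.8%, 33.9% and 88.2% of cells. Hes1 was close to level, 63.5 against 93.2 CPM (-0.55 ± 0.76). None of the 14 fringe genes, proteases and other Notch modifiers measured met the rule, and their median was -0.10.

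Some haemogenic and haematopoietic genes were lower in cluster 0 than in the pooled clusters. Runx1, the factor required for haematopoietic cells to form from endothelium, averaged 1.76 against 46.8 CPM (-4.03 ± 0.40). It had reads in 6.94% of cells in cluster 0 and in 3.45%, 4.95% and 7.02% in clusters 1, 3 and 5, against 96.3% in cluster 2 and 17.1% in cluster 4, so clusters 1, 3 and 5 were about as low. Gfi1 had 0 reads in all cells of cluster 0, which, with 3 cells as the limit that a count of 0 allows, leaves a share of up to 1.73% of cells with reads and puts its level at least 14.5-fold below the 10.4 CPM of the other clusters, although 31 GFI1+ HE and 87 and 19 GFI1+ IAHC cells had been sorted on the reporter. Cells with Gfi1 reads lay in clusters 2 (46 cells), 4 (8) and 1 (2), and clusters 3 and 5 had none. Gfi1 therefore did not mark cluster 0 off from clusters 1, 3 and 5. Ptprc (CD45) had reads in 1 cell of cluster 0, 1 of cluster 1 and 1 of cluster 5. Clusters 3 and 4 had no cell with Ptprc reads, against 79 cells in cluster 2. Of 19 haematopoietic genes 4 met the rule as lower, with a median of -3.23, or -3.28 with genes at 0 reads set at their bound. Of 19 haemogenic genes 1 met the rule as lower, with a median of -1.30. The pooled side included the cells of cluster 2. Under alternative settings the haematopoietic median ran from -4.06 to 0 and the haemogenic one from -2.35 to 0.11. Emb, the basigin relative embigin, stood at 6.11, 6.31 and 3.86 CPM against 97.98, 115.9 and 87.6 (-4.00 ± 0.19), without being lower against clusters 1 and 5 singly, and Cd44, the hyaluronan receptor of cluster cells, averaged 3.69 against 79.4 CPM (-4.22 ± 0.92). Kit, whose protein was the gate for the IAHC cells, averaged 91.7 against 158.4 CPM (-0.80 ± 0.96).

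Some genes of innate defence and of the response to flow were also higher. Of 6 genes for lipopolysaccharide binding and complement control, 2 met the rule as higher and the median was 1.72. Lbp, the lipopolysaccharide-binding protein, had 395, 231.04 and 405 CPM against 111.8, 90.9 and 96.01 (1.74 ± 0.37), and Cd59a, which blocks the complement attack complex, averaged 151.6 against 45.4 CPM (1.70 ± 0.13). Of 12 flow-responsive genes 2 were higher, with a median of 0.70. Klf4, a factor induced by laminar flow, had 111.7, 109.3 and 98.6 against 38.5, 31.8 and 23.2 CPM (1.77 ± 0.27).

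Among secreted signals, Bmp4 averaged 176.5 against 45.02 CPM (1.94 ± 0.31), Igfbp3 292.6 against 687 CPM (-1.21 ± 0.10) and Vegfc, the ligand of Flt4, 28.2 against 86.02 CPM (-1.65 ± 0.52). Vegfc was not lower against clusters 3 and 5 singly, nor Igfbp3 against cluster 2. Apln, the ligand of the Aplnr receptor, had no steady direction, with 19.9, 114.6 and 91.7 CPM against 60.7, 27.9 and 68.6 (0.28 ± 1.78). Of 8 tip cell genes 2 were lower, with a median of -1.54. Ribosomal protein genes (median -0.02), oxidative phosphorylation (-0.10), S phase (-0.06) and mitosis genes (0.01) had medians near that of all genes, and none of their members met the rule. Under alternative settings, however, the mitosis median ran from -0.79 to 0.81 and the S phase median from -0.44 to 0.07. The 17 glycolysis genes had a median of -0.40 and the 13 immediate early genes one of 0.70, again with no member past the rule.

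**Figure D3:**
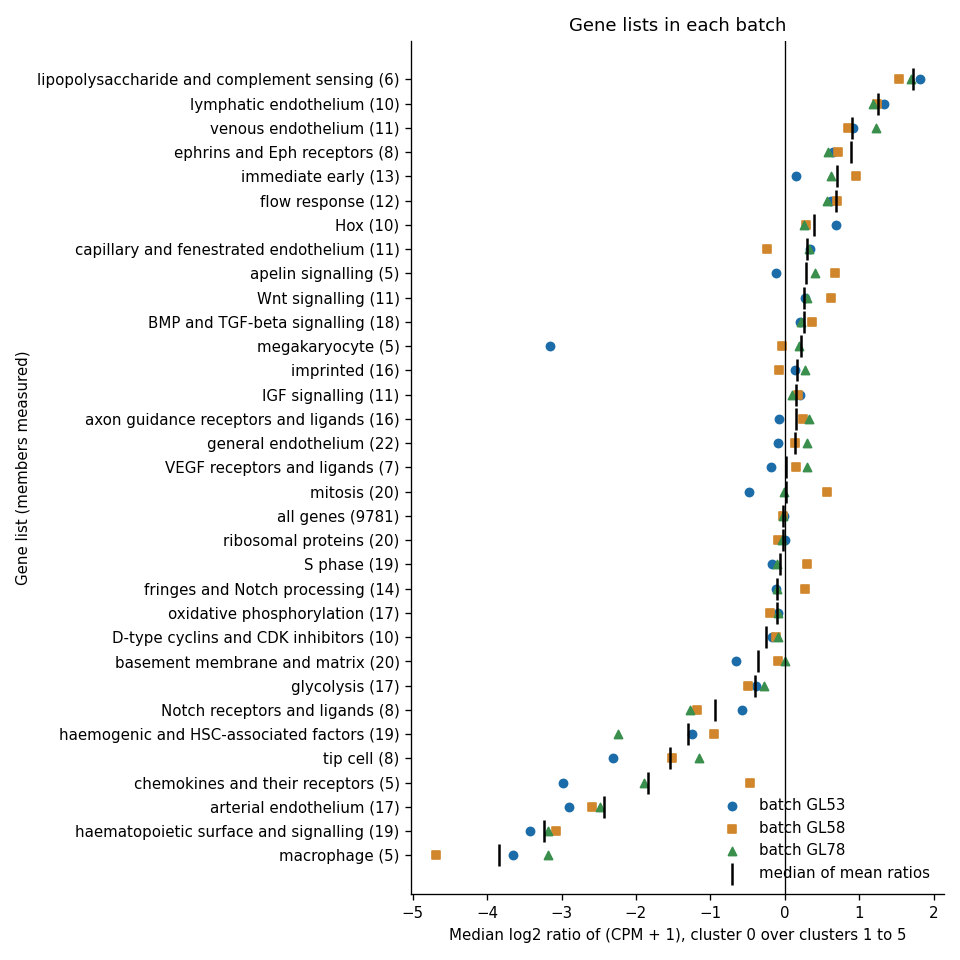
The median log2 ratio of cluster 0 over clusters 1 to 5 (horizontal axis) by list (rows). Rows are all genes and the gene lists with at least 5 members measured. Each has 1 point for each of GL53, GL58 and GL78 and a black bar for the median of the batch-averaged ratios. Venous, lymphatic, and lipopolysaccharide and complement lists lie to the right of 0 and arterial, tip cell and haematopoietic lists to the left.

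Summed levels of markers of other cell types differed between lists. In cluster 0 the germ cell list summed to 0 CPM in GL53 and 0.328 CPM in GL78. The haematopoietic list summed to 10.8 CPM in GL53 and 31.2 in GL78, against 3119 and 2169 CPM in cluster 2. In clusters 1, 3 and 5 it was also low, from 8.74 to 48.5 CPM. Mesenchyme genes summed to 28.9 and 22.7 CPM in cluster 0, and mesonephric genes to 27.2 and 2.74 CPM. Macrophage genes summed to 19.8 and 19.4 CPM and erythroid genes to 2.27 and 4.93 CPM. Megakaryocyte genes summed to 0.996 CPM in GL53 and to 112.7 CPM in GL78, where all 5 were at 1 CPM or more and the sum was above those of clusters 1 to 5 (at most 72.9 CPM in either batch). The lymphatic list summed to 771 and 353.8 CPM in cluster 0, above each of clusters 1 to 5 (at most 309.1 and 163.4 CPM) and below cluster 7 (1601 and 1817 CPM). Since none of the given markers led the cluster by fold and lymphatic genes stood beside the venous ones, it is called cluster 0 here, after its rule.

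Cluster 1 had a lower Aplnr level than cluster 0, 1051 and 744 CPM in GL53 and GL78 (0.49 ± 0.21 over 3 batches), and higher levels of some arterial and tip cell genes. In 3 batches 1.19% of 9555 genes were higher in cluster 0 and 71 genes (0.743%) lower. Edn1, the vasoconstrictor endothelin 1, averaged 241.7 against 20.6 CPM (3.49 ± 0.39). Vwf, the von Willebrand factor of mature endothelium, averaged 367.98 against 32.4 CPM (3.23 ± 0.83), and Procr, the protein C receptor, 143.7 against 19.1 CPM (2.80 ± 0.53). The lower genes were led by Esm1, an endothelial tip cell proteoglycan, at 1.65 against 128.9 CPM (-5.75 ± 1.17), and Hey1 at 7.23 against 150 CPM (-4.23 ± 0.20). Dll4 averaged 35.6 against 242.6 CPM (-2.80 ± 0.49) and Igfbp3 292.6 against 1198 CPM (-2.08 ± 0.47). Of 8 tip cell genes 5 were lower (median -1.78), of 11 venous genes 4 were higher (0.79), and of 11 arterial genes 5 were lower and 1, Jag1, was higher at 31.1 against 11.45 CPM (1.42 ± 0.49).

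Cluster 3 was the cluster with the fewest genes above cluster 0. In GL53 and GL78, 1.81% of 9498 genes were higher in cluster 0 and 6 genes (0.0632%) lower. Cldn11 averaged 123.7 against 3.997 CPM (4.47 ± 0.53, SD over 2 batches), Edn1 225.2 against 27.1 CPM (3.001 ± 0.14), Dll1 118.7 against 21.3 CPM (2.38 ± 0.21) and Vwf 477 against 68.8 CPM (2.67 ± 0.75). Aplnr did not differ beyond the spread between batches (0.10 ± 0.14), and Nr2f2 (0.70 ± 0.13) and Nrp2 (0.72 ± 0.12) were higher by less than 2-fold. The genes lower in cluster 0 were Mcc, Bok, Fndc3c1, Ctu2, Hspbap1 and Snx30, of which Bok, a BCL-2 family protein, averaged 58.1 against 158.8 CPM (-1.50 ± 0.25). Of 13 flow genes 5 were higher (median 0.89) and of 7 lipopolysaccharide and complement genes 3 (1.37).

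Against cluster 5, some DNA replication genes were among those lower in cluster 0. Of 9562 genes 2.66% were higher in cluster 0 and 39 (0.408%) lower, and 5 of 19 S phase genes were lower, with a median of -1.12. Cdc6, which licenses replication origins, averaged 42.7 against 217.7 CPM (-2.38 ± 0.24), and Ccne2, a cyclin of S phase entry, 8.89 against 43.7 CPM (-2.17 ± 0.18). The authors' calls placed 43.9% of cluster 5 cells in S phase, against 2.89% of cluster 0. The higher genes were led by Epha4, an ephrin receptor, at 50.5 against 0.279 CPM (5.27 ± 0.34). Dll1 was closest to cluster 0 here, with 157.9 and 79.6 CPM in cluster 0 against 66.8 and 27.1 CPM in cluster 5 (1.37 ± 0.21). Of 9 lipopolysaccharide and complement genes 5 were higher (median 1.44).

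Cluster 4 was arterial by the same lists. Of 10049 genes 380 were higher in cluster 0 (3.78%) and 450 lower (4.48%), and 16 of 17 arterial genes were lower, with a median of -3.86. Gja5 averaged 0.0318 against 1551 CPM, Gja4 35.8 against 2622 CPM (-6.16 ± 0.04) and Eln, elastin, 8.82 against 1172 CPM (-6.88 ± 0.05). In the other direction Aplnr averaged 1364 against 6.68 CPM (8.39 ± 2.83) and Nr2f2 133.4 against 2.71 CPM (5.18 ± 0.02). Cldn11 had 0 reads in cluster 4 in both batches, so that its 123.7 CPM in cluster 0 was at least 534-fold higher. Of 8 Notch receptors and ligands 6 were lower and 1, Dll1, was higher at 118.7 against 14.2 CPM (3.02 ± 0.16). Notch1 averaged 147.3 against 361.9 CPM (-1.29 ± 0.09), Dll4 36.9 against 375.7 CPM (-3.42 ± 0.89) and Jag1 31.5 against 513 CPM (-3.86 ± 0.46).

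Vwf and Edn1, chosen as a pair after their values were seen, lay in cluster 0 between cluster 4 and clusters 1, 3 and 5. Vwf stood at 653 and 300.03 CPM (GL53 and GL78) in cluster 0, at 4521 and 2254 in cluster 4, and at 38.6 and 30.4 in cluster 1, 70.2 and 67.4 in cluster 3 and 91.1 and 18.8 in cluster 5. Edn1 followed the same order, with 249.1 and 201.2 CPM in cluster 0, 875 and 398 in cluster 4, and from 17.01 to 39.1 in clusters 1, 3 and 5. Since the pair was chosen after its values were seen, this order describes Vwf and Edn1 only and is no evidence beyond them. Each value pools the cells of a cluster and batch, and Vwf had reads in 65.3% of cells of cluster 0. Of the 13 immediate early genes 6 were higher in cluster 0 than in cluster 4 (median 1.49), among them Fos at 1072 against 199.1 CPM (2.39 ± 0.30), and 81.6% of cluster 4 cells were called G1 against 51.4% of cluster 0.

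Cluster 2 was haematopoietic by its lists, and the largest differences lay against it, with 939 of 10394 genes higher in cluster 0 (9.03%) and 711 lower (6.84%). Aplnr averaged 1364 CPM in cluster 0 and had 1 read in the 96 cells of cluster 2. Cd69 and Plac8 had 0 reads in cluster 0 against 310.9 and 179.01 CPM, at least 5756-fold and 3084-fold lower, and Runx1 averaged 1.83 against 215.2 CPM (-6.27 ± 0.25). Of 11 venous genes 10 were higher (median 4.86), of 22 general endothelial genes 19 (2.17), and of 21 haematopoietic genes 18 were lower (-5.23). Procr, which also marks the earliest haematopoietic stem cells, was level (164.6 against 170 CPM, -0.11 ± 0.28), and so was Vwf (0.45 ± 0.50). The receptors Notch1 and Notch2 had opposite signs, at 147.3 against 89.4 CPM (0.80 ± 0.65, below the 2-fold rule in 1 batch) and 10.7 against 66.7 CPM (-2.63 ± 0.42).

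Cluster 7, which held the highest lymphatic sum, was added as a comparison after the lymphatic genes of cluster 0 had been seen, in GL53 and GL78. Of 9755 genes 522 were higher in cluster 0 (5.35%) and 2.22% lower. Prox1 was 88.2 and 28.6 CPM in cluster 0 against 660 and 681 (-3.71 ± 1.16), Flt4 averaged 264.7 against 970 CPM (-1.88 ± 0.13), and Pdpn, podoplanin, 1.31 against 133.5 CPM (-6.09 ± 0.93). Lyve1 had no steady order, with 251.2 and 115.4 CPM against 34.3 and 334.3. Vwf had 0 reads in cluster 7 and was at least 843-fold higher in cluster 0, Aplnr averaged 1364 against 39.1 CPM (5.14 ± 0.32), and Esam, a junctional adhesion molecule, 841 against 3.61 CPM (8.14 ± 2.07). Of 11 lymphatic genes 4 were thus lower and 1 higher in cluster 0, with a median of -0.88.

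Within cluster 0 the label genes had reads in nearly every cell, at levels that varied, and the genes with the largest folds did not. Aplnr had reads in 170 cells, all but 3, with a median of 1247 CPM and quartiles of 804 and 1663. Emcn, Igf1, Nrp2 and Nr2f2 had reads in all but 1, 3, 2 and 6 cells. Dll1 had reads in 73.4% of cells, against 49.1% of cells in cluster 5, 29.7% in cluster 3, 20.7% in cluster 1, 11.8% in cluster 4 and 4.59% in cluster 2. Cldn11 had reads in 72 cells (41.6%), against at most 10.53% in clusters 1 to 5, Lyve1 in 70, Prox1 in 67 and Nrxn3 in 59. Prox1 and Lyve1 were found together in 33 cells, Prox1 alone in 34, Lyve1 alone in 37 and neither in 69, so that their reads did not set apart a single subset. Vwf was found in 65.3% of cells at a median of 88.2 CPM.

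Arterial and haemogenic genes had reads in a minority of cells. Gja4 was detected in 24 cells and Runx1 in 12. Dll4 was detected in 45 cells and Hey1 in 30. In cluster 2, where it should be present, Gfi1 had reads in 46 cells (42.2%), while clusters 3 and 5 had none.

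**Figure D4:**
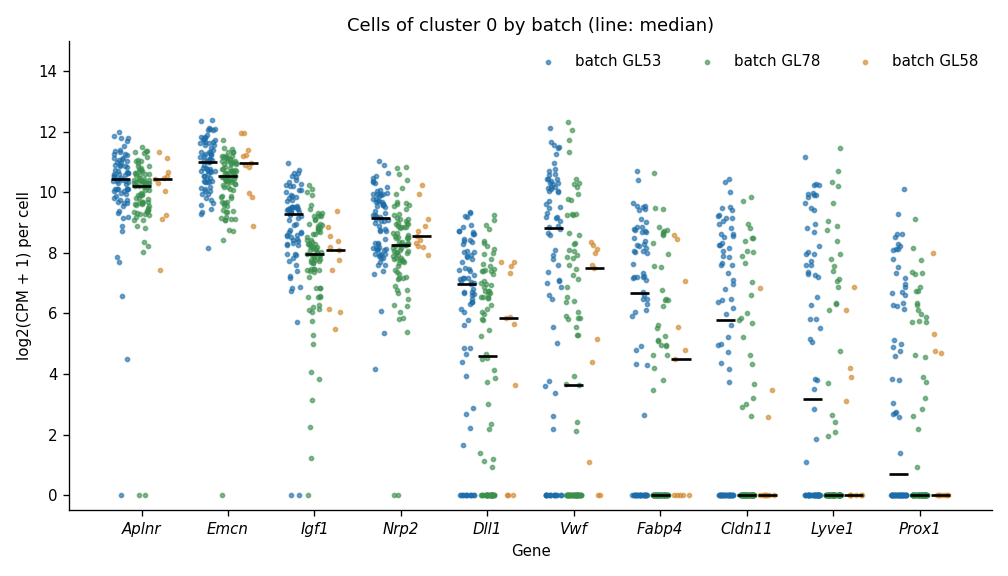
Level per cell, log2(CPM + 1), of 10 genes (panels) in the cells of cluster 0 by batch GL53, GL78 and GL58, each point a cell and the line the median. Aplnr, Emcn, Igf1 and Nrp2 have reads in nearly every cell, while Cldn11 (reads in 72 cells), Lyve1 (70) and Prox1 (67) are at 0 in most.

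Likeness to Aplnr across the cells of cluster 0 was Spearman's rank correlation across cells, averaged over GL53 (72 cells) and GL78 (84 cells), for 6203 genes, of which the middle 95% lay between -0.20 and 0.19. These correlations share the depth of each cell and are given as a description. The 8 highest were Ets1 (0.42), Entpd1 (0.42), Esam (0.38), H2-D1 (0.37), Cd93 (0.32), Plagl1 (0.32), Nrp1 (0.32) and Ralb (0.31). H2-D1 belongs to a family of near-identical genes, so its reads may be shared with other members.

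Cluster 0 was taken from all 3 gates, most of all from GFI1+ IAHC at E11.5. Of the kept cells of a gate it held 87 of 240 E11.5 GFI1+ IAHC (36.2%, 95% exact Clopper-Pearson interval 30.2 to 42.7), 25.9% of the E11.5 GFI1- IAHC (35 cells, 18.8 to 34.2) and 13.4% of the E11.5 GFI1+ HE (23 cells, 8.67 to 19.4). At E10.5 it held 16.4% of the GFI1+ IAHC (19 cells, 10.2 to 24.4), 7.34% of the GFI1+ HE (8 cells, 3.22 to 13.95) and 1 of 3 GFI1- IAHC cells. The share in E11.5 GFI1+ IAHC was above that in E11.5 GFI1+ HE in GL53 (33.1% against 7.96%), in GL58 (6 of 30 against 3 of 19 cells) and in GL78 (46.1% against 27.5%), with intervals that overlapped in GL58 and GL78. The gates set which cells could enter, and the intervals cover counting of cells only.

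The index sort recorded surface protein and reporter fluorescence for all but 11 cells of cluster 0, a readout that was not used to draw the clusters. Medians were compared within the 8 combinations of gate, stage and batch with enough cells, as differences in arbitrary units, since the signals have no true zero. The DLL4 signal was lower in cluster 0 than in clusters 1 to 5 in 8 of 8 combinations, by 13.7 to 48.3 units. In E11.5 GFI1+ HE of GL53, for example, its median was -0.61 (range -76.1 to 329.3) in 9 cells of cluster 0 and 47.7 (-723 to 279.2) in the others, and in E11.5 GFI1- IAHC of GL53 it was -11.9 in 22 cells and 15.9 in 19. The direction was that of the Dll4 transcript, but the ranges of single cells overlapped in every combination. Against cluster 1 alone DLL4 was lower in 8 of 8 combinations (by 12.7 to 166.2 units) and against cluster 4 in 3 of 3. Against clusters 3 and 5 it was lower in 6 of 7 and 3 of 4, and against cluster 2 it was higher in 4 of 5 (differences from -48.4 to 275.8).

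The GFI1 reporter signal was also lower in cluster 0 in 8 of 8 combinations, by 0.73 to 417 units. Against clusters 1, 2, 3, 4 and 5 singly it was lower in 7 of 8, 4 of 5, 5 of 7, 3 of 3 and 4 of 4. Its median in E10.5 GFI1+ IAHC of GL78 was 357.5 in 13 cells of cluster 0 and 774 in 68 others, and in E11.5 GFI1+ HE of GL78 it was 436 in 11 cells and 744 in 28. All 6 cells of cluster 0 in E10.5 GFI1+ HE and all 11 in E11.5 GFI1+ HE of GL78 lay at 329.45 units or above. In the GFI1- gate the signals were close, 209.3 against 210.02 in GL53.

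NOTCH1 protein was higher in cluster 0 than in cluster 2 in 5 of 5 combinations (by 282.6 to 679 units) and than in cluster 4 in 3 of 3 (166.1 to 275.96), the latter against the direction of the Notch1 transcript. It was lower than in cluster 1 in 6 of 8 (differences from -260.8 to 15.6) and had no steady order against cluster 3 (lower in 4 of 7) or cluster 5 (lower in 2 of 4). Against clusters 1 to 5 together it was higher in 6 of 8, and NOTCH2 in 7 of 8 (differences from -9.61 to 78.02). JAG1 was lower in 5 of 8 and CD31 in 4 of 8, so that neither had a steady order. cKIT was higher in 5 of 8 and lower in 3 (differences from -95.8 to 256.4). The largest difference was in E11.5 GFI1+ HE of GL53, whose gate is cKIT-. There the 9 cells of cluster 0 had a median cKIT signal of 271.2 against 14.9 in the others.

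**Figure D5:**
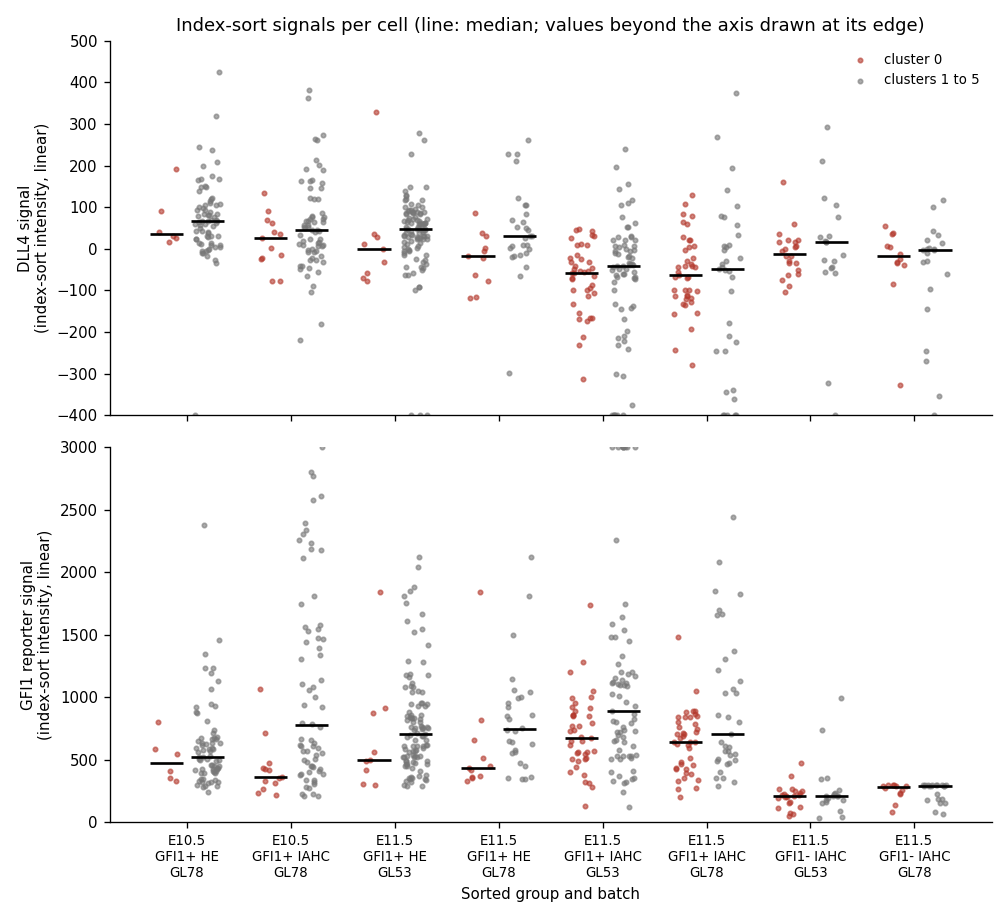
DLL4 and GFI1 reporter fluorescence per cell in arbitrary units (vertical axes) for cluster 0 and clusters 1 to 5 in 8 combinations of gate, stage and batch, each point a cell and the line the median, with values beyond the axis drawn at its edge. The median of cluster 0 is the lower of the pair in 8 of 8 combinations for both signals, and the points overlap.

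Between the gates, none of the 5 label genes met the 2-fold rule. In E11.5 GFI1+ HE against GFI1+ IAHC cells of cluster 0 (9 against 40 cells in GL53, 11 against 41 in GL78), 63 of 9827 genes were higher (0.641%) and 2.37% lower. Aplnr (1755 against 1404 CPM, 0.29 ± 0.23), Emcn (1992 against 1755, 0.14 ± 0.24) and Kit (68.4 against 72.1, -0.09 ± 0.11) were close. Nrp2 differed by 0.16 ± 0.02, Plvap by 0.37 ± 0.46 and Igf1 by -0.53 ± 0.45, the last at 172.7 against 311.9 CPM in GL78. Among the lower genes were Prox1 at 31.7 and 11.7 CPM against 100 and 34.1 (-1.55 ± 0.12), Foxc2, a forkhead factor of lymphatic valves, at 32.8 against 113.6 CPM (-1.88 ± 0.42), and Klf4 at 53.8 against 154.97 CPM (-1.52 ± 0.46). Of 13 immediate early genes 4 were lower, with a median of -0.78. Pdgfa averaged 1.08 against 26.3 CPM (-3.84 ± 0.41). Higher in GFI1+ HE were Arhgap11a at 55.7 against 11.2 CPM (2.23 ± 0.35), and Cenpf, a kinetochore protein, at 197.2 against 79.2 CPM (1.32 ± 0.25). With 9 and 11 GFI1+ HE cells, a gene carried by a few cells can set these values.

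GFI1+ and GFI1- IAHC cells of cluster 0 were also compared (40 against 23 cells in GL53, 41 against 12 in GL78), with 1.28% of 9839 genes higher in GFI1+ cells and 80 genes (0.813%) lower. Aplnr was 1563 and 1245 CPM in GFI1+ against 1213 and 1420 in GFI1- cells (0.09 ± 0.39), Prox1 differed by -0.04 ± 0.20 and Dll1 by 0.28 ± 0.01. Jag1 averaged 40.1 against 14.5 CPM (1.39 ± 0.07) and Thbd, thrombomodulin, 166.1 against 40.9 CPM (1.92 ± 0.50). Pdgfa averaged 26.3 against 1.20 CPM (3.79 ± 0.48), so that among E11.5 cells of cluster 0 it was mostly found in the GFI1+ IAHC gate. Ccnb1, cyclin B1, averaged 117.9 against 43.6 CPM (1.398 ± 0.09), 1 of 2 mitosis genes of 20 that were higher. Gfi1 had 0 reads on both sides.

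Stage could be compared in GFI1+ IAHC of GL78 only, with 41 E11.5 and 13 E10.5 cells of cluster 0, and 934 of 9517 genes were higher at E11.5 (9.81%) and 433 lower (4.55%). All E10.5 cells of the cluster came from plate 2, which held no E11.5 cell of it, so stage and plate cannot be told apart. The sexes were also unequal: 29 E11.5 cells had Xist reads only and 11 Y-linked reads only, against 1 and 12 at E10.5. The part of sex in the result was not tested. Fabp4, a fatty acid binding protein of capillary endothelium, stood at 130 against 0.995 CPM (6.03). In the other combinations of gate and batch it was at 26.3 to 549 CPM at E11.5 and at 0 in the other E10.5 combinations with 6 cells (GFI1+ HE of GL78 and GFI1+ IAHC of GL69), so the stages did not overlap. Epha4 stood at 53.7 CPM against 0.0905 (1 read), Cav1, caveolin 1, at 250.3 against 18.01 CPM (3.72) and Cd36, a fatty acid transporter, at 91.9 against 9.95 CPM (3.08).

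Most capillary genes were higher at E11.5 (7 of 11, median 1.80), as were most immediate early genes (11 of 14, median 1.59), with Fos at 1650 against 510.5 CPM (1.69) and Klf4 at 165.98 against 12.6 CPM (3.62). Aplnr (1245 against 960 CPM, 0.37), Emcn (1458.2 against 1491, -0.03), Nrp2 (370 against 355.5, 0.06), Prox1 (34.1 against 31.9, 0.09) and Igf1 (311.9 against 228.4, 0.45) differed by less than 2-fold between stages. Lyve1 was higher at E11.5, at 194.6 against 46.5 CPM (2.04), and Lama1, a laminin chain of early basement membranes, lower at 6.31 against 92.4 CPM (-3.68). The same comparison in clusters 1, 3 and 5 (20 against 30 cells), added after the result had been seen, had 660 of 9144 genes higher at E11.5 (7.22%) and 569 lower (6.22%). There Fabp4 stood at 134.5 CPM against 0 reads, and 6 of 9 capillary genes (median 2.41) and 3 of 13 immediate early genes (0.86) were higher.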

How the data were processed

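Each library was 1 AGM cell. The deposited counts per gene are unscaled. The submitters' processing notes name STAR 2.7.3, HTSeq 0.9.1 and mm10 for them, and they cover 860 cells and 46078 genes, of which 45229 had a symbol in the reference annotation (0.0581% of counts had none). The 92 spike-in rows held 0 counts. No source used here gives the annotation release, the strand setting or the handling of duplicates, so overlapping and antisense genes may share reads. The annotation deposited by the authors held cluster numbers, phase calls, the mitochondrial fraction and index-sort intensity as recorded, without scaling between sorts. Clustering by the authors used Scanpy 1.4.4, with depth, mitochondrial share and cell cycle regressed out and no correction for batch. Their normalized table was not used.

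Cluster 0 held 173 cells (106 of them GFI1+ IAHC) and clusters 1 to 5 held 488. Kept cells were summed per side and batch, and the log2 ratio of CPM with 1 CPM added was averaged over batches with at least 10 cells on both sides (8 within cluster 0). No test was run, since the labels name no animal, and no doublet caller was run. The genes named were the 12 per direction (6 in other comparisons) with the largest smallest batch ratio past the 2-fold rule, predicted genes passed over, plus Notch genes, label markers and the 2 highest and lowest of each list; others were chosen after their values were seen. The 40 gene lists (537 symbols), like the members and rules, were chosen with earlier results of these data known. Where a side had 0 counts, a fold was bounded by setting that side to 3 counts in each batch. Intervals are 95% and exact. The scripts were tested on simulated data. Python 3.11.15 with numpy 2.4.6, pandas 2.3.3, scipy 1.17.1 and matplotlib 3.10.9 was used, and edgeR 4.0.16 in R 4.3.3 for TMM factors only.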

Additional observations from a re-analysis of the deposited data

How the results depend on the processing

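No paired analysis was possible because the labels number cells, not animals, and no comparison had a test. How many genes passed the 2-fold rule depends on its settings, and each number is given here as a percentage of the genes tested at 10 CPM in that comparison, higher then lower in cluster 0, against the pooled clusters 1 to 5 first and then against clusters 1, 2, 3, 4 and 5. Without the minimum on CPM and cells, which lets in genes that were not tested otherwise, the numbers came to 1.21 and 4.31, then 2.73 and 1.35, 14.8 and 14.6, 7.66 and 0.547, 8.59 and 9.58, and 9.998 and 1.14. With 50 CPM as the minimum they were 0.389 and 0.256, then 0.649 and 0.481, 5.66 and 4.02, 0.779 and 0.0211, 2.05 higher, and 0.994 and 0.188. In G1 cells they were 1.48 and 1.21 against the pooled clusters, 2.91 and 1.85 against cluster 1 and 2.91 and 0.6001 against cluster 3. Leaving out a batch, so that fewer batches had to meet the rule, gave 1.07 to 1.21 and 0.746 to 0.849 against the pooled clusters, 1.78 to 2.04 and 1.07 to 1.48 against cluster 1, 11.4 to 15.2 and 9.96 to 15.1 against cluster 2, 6.28 to 6.43 and 0.6001 to 1.96 against cluster 3, 6.83 to 13.3 and 8.57 to 9.17 against cluster 4, and 8.99 to 9.004 and 1.93 to 4.23 against cluster 5. GFI1+ IAHC cells alone gave 2.24 and 1.65, and GFI1+ HE cells alone, from GL78 only, 4.24 and 8.59. A pseudocount of 5 CPM gave 0.0316 lower against cluster 3 and 1.68 and 0.2301 against cluster 5. Thinning to 50000 counts gave 0.471 lower against cluster 1 and 0.105 against cluster 3, and TMM factors 0.126 lower against cluster 3.

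Between GFI1+ HE and GFI1+ IAHC cells of cluster 0 the percentages were 1.85 and 10.98 without a minimum, 0.336 and 0.5902 at 50 CPM, 0.417 and 1.56 with a pseudocount of 5 CPM, and 6.87 to 7.06 and 12.6 to 13.8 in a single batch. Between GFI1+ and GFI1- IAHC cells they were 7.12 and 3.44, 0.224 and 0.285, 0.752 and 0.437, and 6.96 to 10.04 and 4.39 to 7.298 in the same order, and 9.15 and 6.12 in G1 cells. Between stages they were 28.6 and 12.3 without a minimum and 3.404 and 1.44 at 50 CPM. G1 cells were too few for cluster 5, for GFI1+ HE and for the stages, and E10.5 GFI1+ HE of cluster 0 had too few cells for any comparison. Of the gene ratios 2851 kept their value within the SD over batches, 711 did not and 2 reversed: Lsp1 (0.33) and Ly6e (0.53) were higher in cluster 0 against clusters 1, 3, 4 and 5 only. The venous (0.67 to 1.26), lymphatic (0.62 to 1.41), arterial (-3.95 to -0.79) and tip cell (-2.21 to -1.32) medians kept their sign under every setting. Those of Notch receptors and ligands (up to 0.02) and haemogenic genes (up to 0.11) did not, and the haematopoietic median ran from -4.06 to 0. TMM factors moved the median of all genes from -0.11 to 0.04 against cluster 2. DLL4 and the GFI1 reporter were lower than in clusters 1 to 5 in 8 of 8 combinations, and so within E11.5 and within each batch. No other index-sort signal kept 1 direction in all 8. Depth limits genes carried by few cells, above all in GL58 (11 cells) and E10.5.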
